A study of Mus musculus with 66 samples.

Results

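Wrn and Jag1 were followed by the deposited Z scores of 1 cDNA filter, the B filter of a 2-filter mouse gene collection, in the cerebellum of 66 mice. The members were the probes whose platform annotation gave exactly 1 gene symbol and that symbol was Wrn or Jag1. Both genes were also measured by RT-PCR in the study. The RT-PCR headings readable in its supplement name hippocampus, spinal cord and striatum, and none that was read names cerebellum. The rule found 1 probe for Wrn and 1 probe for Jag1 among the 8448 probes of the filter, of which 4875 carried 1 symbol, 224 several and 3349 none. Neither probe passed the test between ages, diets or sexes, and the interval of every difference held 0. The Jag1 score was called as different between runs of array numbers, as were 40% of all probes. That call held without the arrays that correlated poorly with the rest. It was lost when the median of neighbouring probes was subtracted, an alternative chosen after seeing the data. With that subtraction 46.9% of all probes were called.

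All mice were C57BL/6, with no transgene or deletion named in the labels, and total RNA of each cerebellum was copied into radiolabelled cDNA and hybridized to a nylon filter of its own. Mice fed regular chow without limit (ad libitum, AL) were taken at 17 to 21 days (5 mice), at 33 to 44 days (5 mice), at 6 months (10 mice, 169 to 194 days old), at 16 months (10 mice, 476 to 499 days old) and at 24 months (9 mice, 704 to 743 days old). Mice on caloric restriction (CR) had full feed to 13 weeks, then a fortified feed at 90% and 75% of that amount for 1 week each, then 60% until they were killed, and were taken at 6 months (9 mice, 174 to 194 days old), 16 months (10 mice, 472 to 499 days old) and 24 months (8 mice). The 3 male CR mice of the oldest cohort were all 673 days old, younger than the 5 females of that cohort at 703 to 743 days. Both sexes were present in every cohort, which made 16 groups by sex, age and diet.

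Wrn encodes a helicase of the RecQ family that also has an exonuclease domain. It unwinds unusual DNA structures during replication, repair and telomere maintenance, and its loss in people causes Werner syndrome, a disorder with many features of early ageing. Jag1 encodes a ligand held in the cell membrane that binds Notch receptors on a neighbouring cell, after which the receptor is cut and its inner part moves to the nucleus to switch on target genes. In the developing cerebellum Notch signalling is known for its part in the upkeep of granule cell precursors and in the formation of Bergmann glia.

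A Z score gives the distance of a probe from the mean of all probes of its array, in units of the SD over those probes. Differences between groups are therefore in Z units and are not folds. The mean score over all arrays was 0.213 for Wrn and -0.168 for Jag1, so the Wrn probe lay slightly above and the Jag1 probe slightly below the average spot. The scores of different probes rank spots on a filter and were not read as relative amounts of the transcripts. In whole tissue, fewer cells of a type and less RNA per cell cannot be told apart.

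In AL mice the Wrn score lay in 1 narrow band from weaning to old age. The 17 to 21 day mice had scores of 0.20, 0.30 and 0.26 in females and 0.22 and 0.22 in males. The 33 to 44 day mice had scores of 0.09 and 0.11 in females and 0.35, 0.08 and 0.32 in males. The older of these juvenile cohorts was the more scattered, with values on both sides of all 5 younger mice. The adult scores ran from 0.17 through a median of 0.21 to 0.38 at 6 months, from 0.10 through 0.215 to 0.43 at 16 months and from 0.10 through 0.20 to 0.34 at 24 months. Every adult cohort overlapped the others over most of its range.

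The means of the AL cohorts were 0.240 ± 0.0400 (SD, n = 5) at 17 to 21 days, 0.190 ± 0.133 (n = 5) at 33 to 44 days, 0.242 ± 0.0794 (n = 10) at 6 months, 0.225 ± 0.0968 (n = 10) at 16 months and 0.209 ± 0.0821 (n = 9) at 24 months. From 6 to 24 months the fitted difference was -0.0303 Z units, with a standard error (SE) of 0.0473 and a 95% interval from -0.125 to 0.0646 (limma, adjusted p = 1). In this comparison 0 of the 2 members were called at an adjusted p under 0.05, as were 0% of all probes. The interval leaves room for a loss of 0.125 or a gain of 0.0646, each of the order of the spread between mice of 1 cohort. Over the shorter steps the differences were -0.017 (SE 0.0459) from 6 to 16 months and -0.0133 (SE 0.0473) from 16 to 24 months.

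In CR mice the mean Wrn score was lowest at 6 months. The scores ran from 0.00 through a median of 0.21 to 0.29 in that cohort, from 0.11 through 0.195 to 0.39 at 16 months and from -0.04 through 0.245 to 0.28 at 24 months. The means were 0.167 ± 0.0985 (SD, n = 9), 0.214 ± 0.0850 (n = 10) and 0.211 ± 0.106 (n = 8). The fitted difference between CR and AL mice at 6 months was -0.075 (SE 0.0473, 95% interval -0.170 to 0.0199, limma adjusted p = 1), and the ranges of both diets overlapped. An exact permutation test of that diet difference within sex, two-sided, gave p = 0.0897, or 0.712 after adjustment over the 24 such tests run on the members. No other comparison of Wrn gave a lower p in these tests.

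The diet difference of Wrn was -0.011 at 16 months and 0.00658 (SE 0.0509, 95% interval -0.0955 to 0.109) at 24 months. The change from 6 to 24 months under CR exceeded that under AL by 0.0816 (SE 0.0695, 95% interval -0.0577 to 0.221, limma adjusted p = 1). The interval of this diet by age difference held 0. Ordered by their means, the 8 cohorts ran from AL at 6 months down to CR at 6 months, and each of the 7 gaps between neighbours was smaller than the smaller of the SDs beside it.

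**Figure D1:**
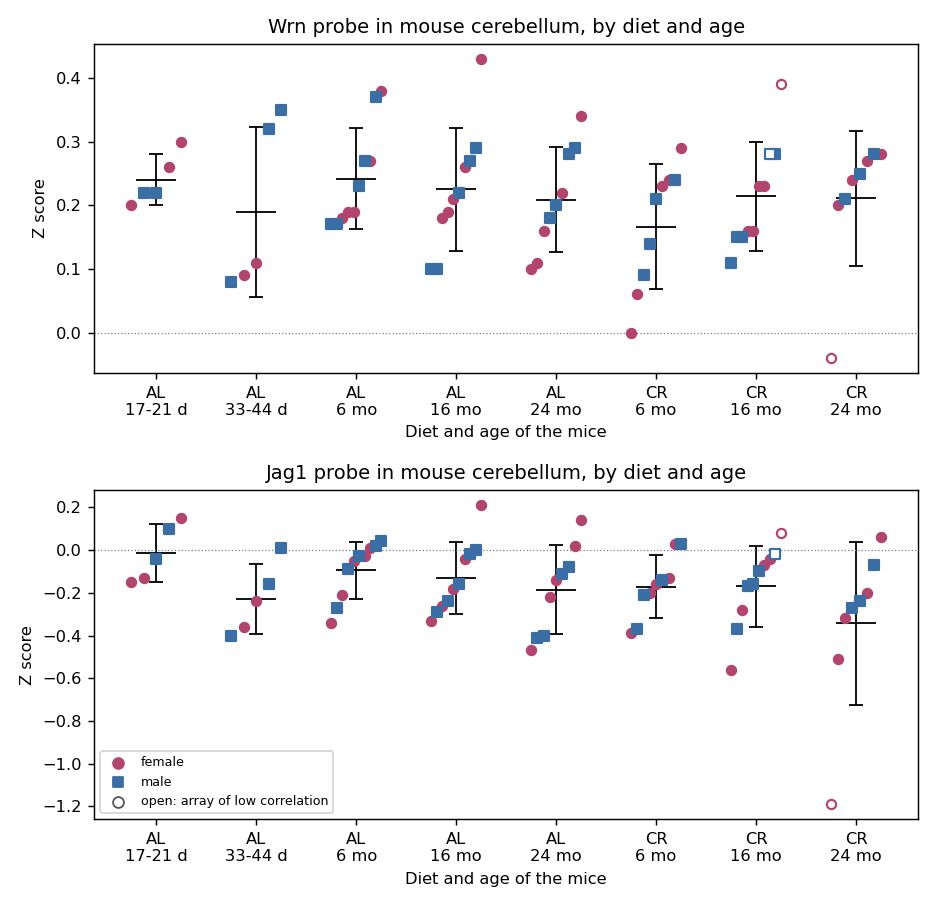
Z score of the Wrn probe (top) and the Jag1 probe (bottom) in each of the 66 mice, by diet and age, points sorted by value within a cohort. Circles are females, squares males, open symbols the 3 arrays of low correlation with the rest, and bars the mean ± SD. The cohorts of both probes overlap, and the lowest point of each panel, -0.04 for Wrn and -1.19 for Jag1, is 1 and the same open array.

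The Jag1 score was scattered more widely than the Wrn score, with an SD of 0.211 over all arrays against 0.0902. The 17 to 21 day mice had scores of -0.13, -0.15 and 0.15 in females and 0.10 and -0.04 in males. The 33 to 44 day mice had scores of -0.36 and -0.24 in females and -0.16, 0.01 and -0.40 in males. The younger mice were on average the higher, but the male at 0.01 lay above 3 of the 5 younger mice.

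The juvenile means of Jag1 were -0.014 ± 0.135 (SD, n = 5) and -0.230 ± 0.165 (n = 5), and the fitted difference of -0.235 from 17 to 21 to 33 to 44 days was the largest of this probe (SE 0.136, 95% interval -0.508 to 0.0378, limma adjusted p = 0.528). In the same step 0 of the 2 members and 0% of all probes were called. The exact permutation test within sex gave p = 0.05 over 100 arrangements, of which the smallest possible p was 0.01, and 0.712 after adjustment over the 24 tests. The juveniles of both ages were not equally spread over the runs of array numbers described below. Run 3 held 2 of the younger mice (0.10 and 0.15) and 0 of the older. Run 5 held 0 of the younger and 2 of the older (-0.40 and -0.24). Runs 1, 2 and 4 held 1 of each, with the older mouse lower in runs 1 and 4 and higher in run 2. With the run as a block the difference was -0.119 (SE 0.124, limma adjusted p = 0.981). From 33 to 44 days to 6 months the fitted Jag1 difference was 0.147 (SE 0.117), or 0.0800 with that block, again with overlapping ranges.

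Among adult AL mice Jag1 ran from -0.34 through a median of -0.04 to 0.04 at 6 months, from -0.33 through -0.17 to 0.21 at 16 months and from -0.47 through -0.14 to 0.14 at 24 months. The means stepped down, at -0.095 ± 0.132 (SD, n = 10), -0.131 ± 0.167 (n = 10) and -0.186 ± 0.208 (n = 9), by less than the spread within a cohort. The fitted difference from 6 to 24 months was -0.097 (SE 0.0972, 95% interval -0.292 to 0.0978, limma adjusted p = 1).

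Under CR the Jag1 score ran from -0.39 through -0.16 to 0.03 at 6 months, from -0.56 through -0.13 to 0.08 at 16 months and from -1.19 through -0.255 to 0.06 at 24 months. The oldest CR cohort held the lowest value of the series, and the other 7 mice of that cohort averaged -0.221 ± 0.182 (SD, n = 7). With all mice the means were -0.171 ± 0.147 (n = 9), -0.169 ± 0.189 (n = 10) and -0.343 ± 0.382 (n = 8). The change from 6 to 24 months under CR was -0.141 (SE 0.105, 95% interval -0.351 to 0.0682, limma adjusted p = 1.00), and the diet difference at 24 months was -0.121 (SE 0.105, 95% interval -0.330 to 0.0889, limma adjusted p = 1.00). Neither passed the test.

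The oldest female CR mice had Jag1 scores of 0.06, -1.19, -0.20, -0.51 and -0.32, with a mean of -0.432 against -0.134 in the 5 AL females of that age. An exact permutation test over those 10 females gave an unadjusted p of 0.254 for the difference of -0.298. The limma contrast of the same female groups, in the fit of all arrays, had an SE of 0.133. Its p was 0.0296 before adjustment and 0.164 after, so it was not called. That fit pools the spread over all groups, while the permutation test used these 10 females only. Without the array at -1.19 the difference was -0.109 (exact permutation p = 0.484, 4 against 5 mice). The males of that age had means of -0.193 under CR and -0.250 under AL.

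**Figure D2:**
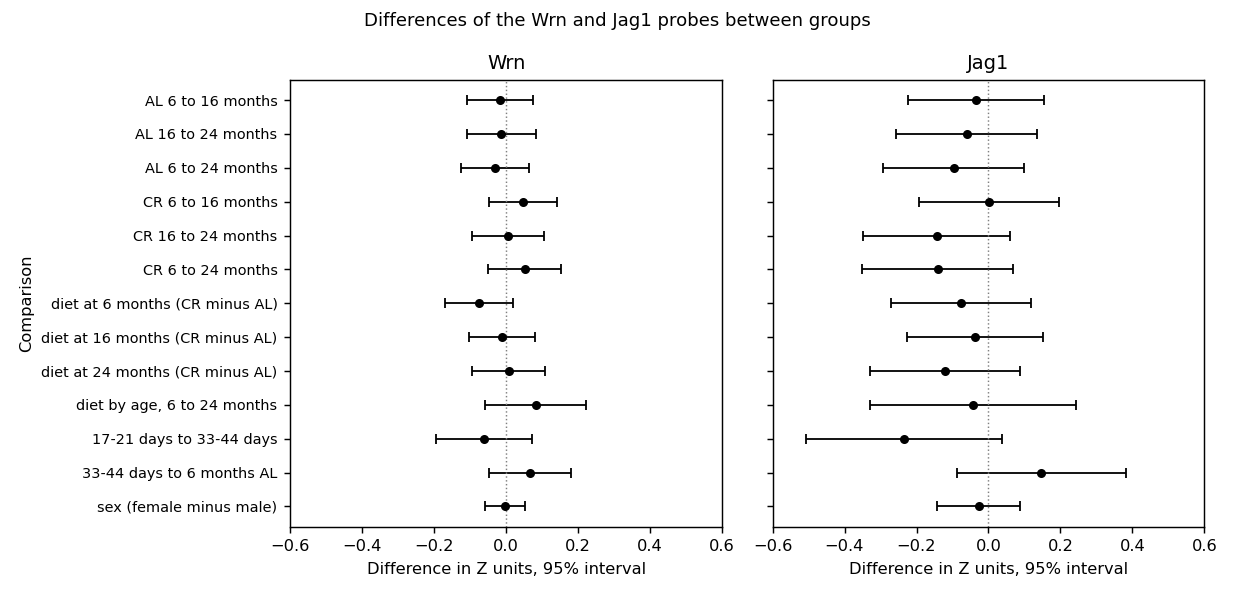
Fitted differences of Wrn (left) and Jag1 (right) in the 13 comparisons, in Z units on the horizontal axis, with 95% intervals as bars. Every interval of both probes crosses the dotted line at 0, and those of Jag1 are the wider.

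Over all 13 comparisons the Wrn differences lay between -0.075 and 0.0816 and those of Jag1 between -0.235 and 0.147. Each of the 13 intervals of either probe included 0, and 0% of all probes were called in any of the comparisons at the adjusted threshold. The smallest adjusted p was 0.757 for Wrn and 0.528 for Jag1. The difference of females minus males over the 12 adult groups was -0.00269 (SE 0.0278) for Wrn and -0.0277 (SE 0.0570) for Jag1. In the exact permutation tests within sex, 22 of the 24 tests, the ranges of the cohorts compared overlapped in 22 of 22 cases. The other tests compared the sexes with 100000 resamples, and there the ranges overlapped as well.

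The study's methods selected genes in steps, by a positive mean score in the pair, a threshold on the Z-ratio (the difference over the SD of the differences of all probes) and an unadjusted p, followed by an analysis of variance that was not run here. These first steps, the Z-ratio criteria, were applied with a Z-ratio of at least 1.5 in size and the unadjusted limma p under 0.05. The pair mean of Jag1 was above 0 in 0 of the 13 comparisons, so Jag1 could not pass, and Wrn, with a pair mean above 0 in 13 of 13, passed in 0. In AL mice 0.118% of all probes passed from 6 to 16 months, 0.391% from 16 to 24 months and 0.118% from 6 to 24 months. In CR mice 2.99%, 2.78% and 0.189% passed over the same steps, and the first and second of these steps share the 16 month cohort with its arrays of low correlation, described next. Between diets 0.0355% passed at 6 months, 3.01% at 16 months and 0.249% at 24 months, with 0.0118% for diet by age. The juvenile step had 3.69%, the step from 33 to 44 days to 6 months 0.26% and the sexes 0.178%. Jag1 passed the Z-ratio alone in 2 comparisons, CR mice from 6 to 24 months (-1.54) and 33 to 44 days to 6 months (1.61). The share of all probes past the Z-ratio alone was not counted. Without the arrays of low correlation the CR difference of Jag1 from 6 to 24 months was -0.0467 in place of -0.141. The Wrn probe passed the Z-ratio in none, and came nearest with -1.12 for diet at 6 months.

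A few filters stood apart from the rest. For 3 arrays, all CR mice of the second run of array numbers, the median correlation with the other arrays was 0.695 (a 16 month male), 0.701 (a 16 month female) and 0.820 (a 24 month female), and the next lowest was 0.921. On these arrays Wrn had scores of 0.28, 0.39 and -0.04, and Jag1 had -0.02, 0.08 and -1.19. The low Wrn value and the low Jag1 value of the oldest CR mice thus came from 1 array.

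Without the 3 arrays the oldest CR mice had Wrn scores from 0.20 to 0.28 and a mean of 0.247 ± 0.0325 (SD, n = 7), and the 16 month CR mice a mean of 0.184 ± 0.0566 (n = 8). Several small differences moved by more than 1.5 times. That of Wrn under CR from 6 to 24 months became 0.0801 (limma adjusted p = 1) and from 16 to 24 months 0.0633 (limma adjusted p = 0.998). For Jag1 the diet difference at 24 months became -0.0259, the change under CR from 6 to 24 months -0.0467 and that from 16 to 24 months 0.000833 in place of -0.144. None passed the test.

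The titles of the arrays held running numbers up to 67, with no break that marks a batch. They were cut here into 5 runs, called array sets, wherever the order of groups started again with juvenile mice. The sets held 14, 13, 13, 14 and 12 arrays, each with at most 1 mouse of any group by sex, age and diet. The labels do not name these sets. The study's methods speak of balanced batches, and no source read here says whether the array sets are these. The Jag1 score differed between the array sets. Its means were -0.095 ± 0.0830 (SD, n = 14), -0.112 ± 0.344 (n = 13), -0.062 ± 0.129 (n = 13), -0.234 ± 0.162 (n = 14) and -0.355 ± 0.0977 (n = 12) in sets 1 to 5. The values of set 5, from -0.56 to -0.24, did not overlap those of set 1, from -0.20 to 0.06, or of set 3, from -0.21 to 0.15.

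Within groups the array set held 28.8% of the sum of squares of Jag1 (limma F = 4.75, adjusted p = 0.0115), against a median of 18.2% over all probes, and 40% of all probes (3375 of 8448) were called for array set. Without the 3 arrays of low correlation the share was 52.6% (limma adjusted p = 3.25e-05, with 55.8% of all probes called). After subtraction of the median of the 5 probes on either side, an alternative chosen after seeing the data, it was 10.7% for Jag1 and no longer called (limma adjusted p = 0.348), while 46.9% of all probes were called. For Wrn it held 4.06% (F = 0.419, adjusted p = 0.836), and the set means lay between 0.183 and 0.234. Once sets were blocked in the fit, the Jag1 differences were -0.0893 for AL mice from 6 to 24 months, -0.132 for CR mice over the same ages and -0.142 for diet at 24 months, close to those without it, unlike the juvenile step.

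**Figure D3:**
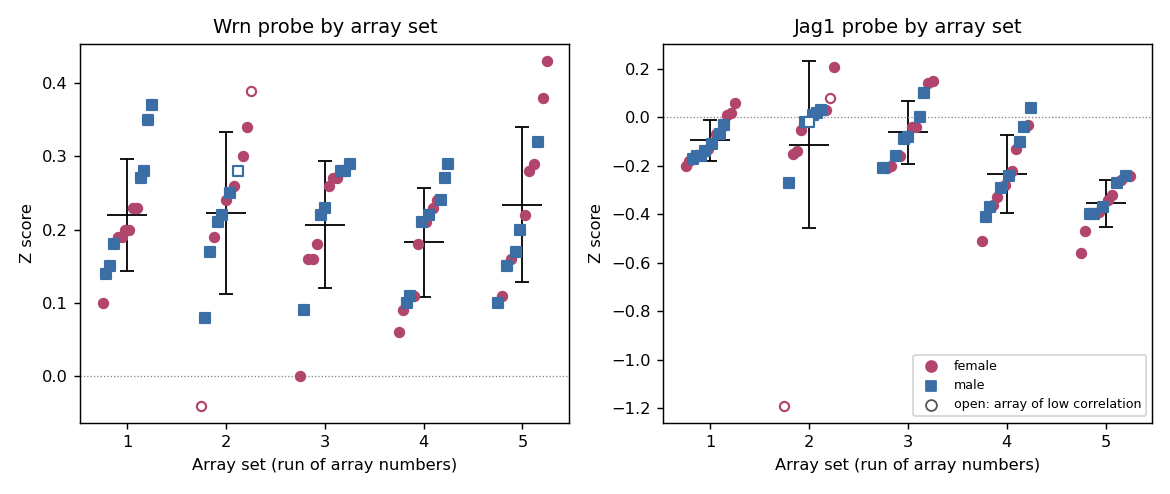
Z score of Wrn (left) and Jag1 (right) by array set, points sorted by value within a set. The sets are runs of array numbers, cut here by the order of groups and not named in the labels. Symbols are as in the plot by cohort and bars are the mean ± SD. All Jag1 values of set 5 lie at or below -0.24, below every value of sets 1 and 3, while the Wrn sets overlap.

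Probes with nearby numbers also moved with the members. Over the 66 arrays the 10 nearest probe numbers to Jag1 had Spearman correlations with it from -0.517 to 0.769, with a median of 0.609, and 6 of the 10 were above 0.5. Among all probes the median correlation with Jag1 was 0.0369, and 14.3% were above 0.5. For Wrn the same 10 neighbours had a median of 0.354 (0.183 to 0.424) against 0.0328 over all probes, with 0 above 0.5.

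Within array sets the neighbours' medians were 0.555 for Jag1 and 0.291 for Wrn, and without the 3 arrays of low correlation they were 0.595 and 0.347. Of all probes, 94.9% had a lower neighbour median than Jag1 and 58.6% a lower one than Wrn. The arrays are shared by every one of these correlations, and no source read here says how probe numbers map to places on the filter. These values are descriptions, and the part of the neighbours in the members' scores was not tested.

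**Figure D4:**
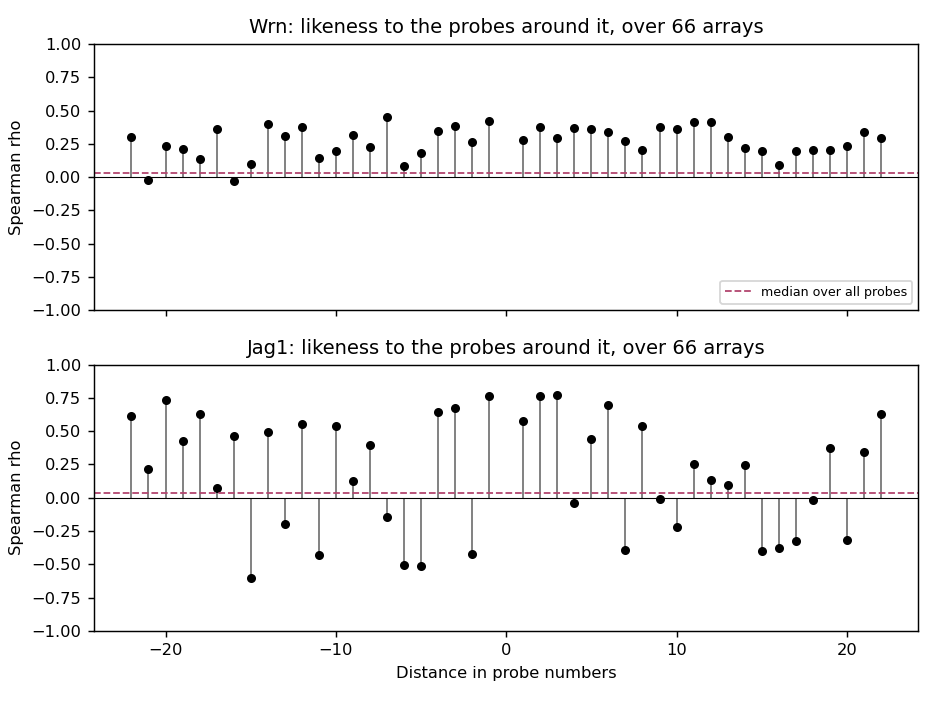
Spearman correlation over 66 arrays of Wrn (top) and Jag1 (bottom) with the probes around it, against the distance in probe numbers. The dashed line is the median over all probes, 0.0328 for Wrn and 0.0369 for Jag1. The neighbours of Wrn lie mostly above the line, while those of Jag1 alternate between high and low values, with 6 of the nearest 10 above 0.5.

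Among the 4874 other probes with 1 symbol, those whose scores were most like Wrn over the 66 arrays were Rsph9 (Spearman rho 0.528), Vps8 (0.511), Usp45 (0.496), Rtel1 (0.469) and E330011O21Rik (0.464). Without the 3 arrays of low correlation 2 of the 5 were again among the most alike. For Jag1 they were Mta3 (0.853), Pitpna (0.847), Tmem183a (0.841), Cuta (0.821) and B930095G15Rik (0.794), and 5 of 5 were again among the most alike. The correlations were higher for Jag1 than for Wrn, and its 5 probes lay 508 to 1151 probe numbers away from Jag1. Within array sets the correlations of the same probes ran from 0.588 to 0.797 for Jag1 and from 0.466 to 0.602 for Wrn.

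The scores of the members were also set against each other. Over the 66 arrays Pearson's r was 0.216 (permutation p = 0.0834) and Spearman's rho 0.0371 (permutation p = 0.767), with an adjusted p of 0.375 for r over 9 relations. Leaving out the 2 arrays with Wrn scores farthest from the median gave r = 0.00500. These arrays had Wrn scores of -0.04 and 0.00, with Jag1 scores of -1.19 and -0.16. The second Jag1 score lay close to the mean of -0.168 over all arrays. Array set 2, which holds the array low in both genes, had r = 0.648 (permutation p = 0.0468, adjusted 0.375) but rho = 0.149, and the other sets lay between -0.154 and 0.132.

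The pathways around the members were read from lists of genes. Of 63 genes of the Wrn list, 22 had a probe with 1 symbol, among them the Wrn partner Wrnip1, the single-strand DNA binding proteins Rpa2 and Rpa3, the break repair kinases Atm and Atr, and the telomere binding proteins Terf1, Terf2 and Tinf2. Besides Wrn this gave 23 probes. In AL mice from 6 to 24 months 0 of the 23 were called and 7 were higher at 24 months, with a median difference of -0.016 against -0.00075 over all probes. In each of the other 12 comparisons 0 of the 23 were called as well. Of all probes, 0% were called in any of the comparisons.

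The list members with the smallest p in age and diet comparisons were given as values. One of the 2 Rad50 probes, for a part of the break-sensing MRN complex, differed by -0.943 between CR and AL mice at 16 months (SE 0.344, limma adjusted p = 0.394), and its CR scores at that age ran from -2.64 to 1.90. Without the arrays of low correlation that difference was -0.0575, and the other Rad50 probe differed by 0.089 with all arrays. Tnks2, a poly-ADP-ribosylating enzyme that acts on telomere proteins, differed by 0.15 (SE 0.0646, adjusted p = 0.437) at that age, and Rpa3 by 0.164 (SE 0.0748, adjusted p = 0.491). Dkc1, the dyskerin subunit of telomerase, differed by -0.312 (SE 0.151, adjusted p = 0.544) between 6 and 16 months of CR. None passed the test. Both comparisons hold 2 of the arrays of low correlation among the 16 month CR mice, and without them the differences were 0.144 for Tnks2, 0.114 for Rpa3 and -0.0133 for Dkc1.

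Of the Notch list, ligands had 3 of 8 genes on the filter (Jag1, Dner and Dlk1), the processing enzymes 5 of 10 (the shedding proteases Adam10 and Adam17 and the gamma-secretase subunits Psen2, Psenen and Aph1b), the sugar transferases and ligand ubiquitin ligases 2 of 10 (Mfng and Mib1), the inhibitors and receptor ligases 4 of 9 (Numb, Itch, Dtx1 and Fbxw7) and the nuclear factors 6 of 18. The 4 Notch receptors and the 7 Hes and Hey target genes had no probe with 1 symbol, so the receptor and target ends of the pathway were not read. Besides Jag1 there were 20 probes. In AL mice from 6 to 24 months 11 of the 20 were higher at 24 months. Their median difference was 0.0154 against -0.00075 over all probes. In that or any other comparison 0 of the 20 were called, as were 0% of all probes.

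The Mfng probe, for a sugar transferase that tunes the choice of ligand by Notch, differed by -0.312 (SE 0.118, limma adjusted p = 0.416) between 6 and 16 months of CR, and by -0.147 without the arrays of low correlation. Mib1, the ubiquitin ligase that lets ligands signal, differed by -0.174 (SE 0.0669, adjusted p = 0.464) between 16 and 24 months of CR, and by -0.131 without those arrays. Itch, a ligase that acts on Notch receptors, differed by 0.495 (SE 0.216, adjusted p = 1) from 16 to 24 months of AL, and 1 of the 2 probes of Hdac2, a histone deacetylase, by 0.166 (SE 0.0738, adjusted p = 1) between diets at 24 months. Without the arrays of low correlation this Hdac2 difference was 0.0929, and the other Hdac2 probe differed by -0.0966 with all arrays. These were again the smallest p values of the list, and none passed the test.

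Other genes were measured by RT-PCR in the study as well. Of those 4, Hsp90aa1, for an inducible chaperone, had a probe with 1 symbol, with AL means of 0.014 ± 0.121 (SD, n = 10) at 6 months, 0.070 ± 0.154 (n = 10) at 16 months and -0.056 ± 0.108 (n = 9) at 24 months. Its difference from 16 to 24 months was -0.125 (SE 0.0631, limma adjusted p = 1).

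Gene names stand here for a probe as it is annotated, since probes of the same gene could differ. Rad50 had 2 probes with mean scores of -0.946 and 1.69, Wrnip1 had -0.172 and 0.759, and Hdac2 had -0.975 and 0.0674. With 1 probe each, no such check was possible for Wrn or Jag1. The cerebellar origin of the RNA was not checked, since no other tissue was compared. Of the cell type markers, 0 of 12 for granule neurons and 0 of 11 for oligodendrocytes had a probe with 1 symbol. Of 9 Purkinje cell markers 2 had one, Car8 with a mean score of 0.820 and Calb1, whose 4 probes had mean scores from -0.617 to 0.377.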

How the data were processed

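Total RNA of each cerebellum was labelled with 33P-dCTP per the labels and hybridized to a nylon cDNA filter. The values deposited by the authors were Z scores, each array centred and scaled over its probes after quantification of phosphor images. No source read here says whether logarithms were taken first, and the number of arrays limits the precision.

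Groups came from the labelled sex, age and diet. All 8448 probes of the 66 arrays were fitted with limma 3.58.1 in R 4.3.3 (16 group means, 50 residual degrees of freedom, sexes weighted equally, two-sided, Benjamini-Hochberg adjustment over all probes, calls at adjusted p under 0.05) in 13 comparisons. The fit was tested on simulated data for AL mice from 6 to 24 months, over 8448 probes. Together 67 probes were changed by 0.3 Z units, 67 by 0.6 and 66 by 1. Of these, 52.2%, 88.1% and 95.5% were called. The simulated noise was normal and independent between probes, without array set shifts or outlying arrays. These shares are therefore not the power in the deposited data. Exact permutation tests were run within sex, and relations used permutation tests. Each mouse was a separate sample.

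The members and lists were chosen with earlier results of these data known. The text names Wrn, Jag1, the other RT-PCR genes, the 4 probes of each list with the smallest p over age and diet comparisons where none was called, and the 5 probes most like each member. Other genes of the lists and the markers were named to describe coverage of the filter. Alternatives were a filter on a mean score above 0, leaving out 3 arrays with a median correlation below 0.9, and the array set as a block. Others were quantile normalization, a correction for position in runs of 22 probe numbers and the groups of a comparison alone. Array weights were also used (limma's iteration ended before convergence). Further ones were contrasts of the female groups in the fit of all arrays, leaving out each array in turn, and the Z-ratio criteria. Subtraction of the median of the 5 probes on either side was chosen after seeing the data. Leaving out the 3 arrays for the list probes and for the array set effect was also chosen after seeing the data.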

Additional observations from a re-analysis of the deposited data

Results flagged for a closer look

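Of 22 groups of 4 or more mice tested over both genes, 1 held a value far from the rest, and chance alone gives about 1 in 20. The Wrn score of 1 female CR mouse of 24 months was -0.04, against 0.20 to 0.28 in the other 4 females of that group. The gap was 0.75 of the group's range, where 0.71 is the critical value. That array is one of the 3 of low correlation and also holds the lowest Jag1 score.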

How the results depend on the processing

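Across the other settings, 177 of 203 member differences kept their sign and 26 changed it, 0 were called, and the smallest adjusted p was 0.164 (Jag1, diet at 24 months in females). Without the 3 arrays of low correlation the changed values were -0.0475 (Jag1, CR 6 to 16 months), 0.000833 (Jag1, CR 16 to 24 months, in place of -0.144), 0.0503 (Jag1, diet by age) and 0.00397 (Wrn, sex). With quantile normalization they were 0.00138 (Wrn, AL 16 to 24 months), -0.0112 (Jag1, CR 6 to 16 months) and 0.00457 (Wrn, sex). With the position correction they were 0.0208 and 0.0105 (Wrn, AL 16 to 24 and 6 to 24 months), -0.0768 (Jag1, CR 6 to 16 months) and 0.0109 (Wrn, sex). With array weights they were 0.0199 (Wrn, AL 16 to 24 months), 0.00206 (Wrn, diet at 16 months), 0.0655 (Jag1, diet by age) and 0.0614 (Jag1, sex). In the contrasts of the female groups the changed value was -0.044 (Wrn, CR 16 to 24 months). With the neighbour correction, chosen after seeing the data, Wrn changed to 0.0015 (AL 6 to 16 months), -0.0453, -0.00117 and -0.0464 (CR 6 to 16, 16 to 24 and 6 to 24 months), -0.0104 (diet at 24 months), -0.000667 (diet by age), 0.0183 (juveniles) and 0.0341 (sex), and Jag1 to 0.00675 (AL 16 to 24 months) and 0.0035 (diet at 16 months). The causes were not tested.

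Of 570 differences with 1 array left out, 522 kept their sign and 0 were called. Where the sign changed, Wrn ranged from -0.039 to 0.00025 (AL 6 to 16 months), -0.0325 to 0.00875 (AL 16 to 24 months), -0.00692 to 0.0331 (CR 16 to 24 months), -0.0305 to 0.011 (diet at 16 months), -0.00467 to 0.0353 (diet at 24 months) and -0.0100 to 0.00689 (sex), and Jag1 from -0.0307 to 0.0505 (CR 6 to 16 months), -0.0698 to 0.0103 (diet at 16 months), -0.106 to 0.0503 (diet by age) and -0.0482 to 0.00389 (sex).

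Counts of called probes, 0 in every comparison, became under the Z-ratio criteria 10, 33 and 10 (AL 6 to 16, 16 to 24 and 6 to 24 months), 253, 235 and 16 (CR), 3, 254 and 21 (diet at 6, 16 and 24 months), 1 (diet by age), 312 and 22 (juveniles, and to 6 months) and 15 (sex). For juveniles the count was 21 with the filter on mean score, 22 with array weights, 20 with the position correction, 21 once those 3 arrays were left out and 1 with the neighbour correction, and 0 to 489 with 1 array left out, the highest without male 2 of 17 to 21 days. It was 0 to 11 for 33 to 44 days to 6 months, 1 for AL 16 to 24 months with the groups compared alone, and 1 with array weights for CR 16 to 24 months and for diet at 16 and at 24 months. Without the arrays of low correlation r between the members was -0.0508, and 2 of the 5 probes most like Wrn remained. Jag1 had no value under the mean score filter. The part of the Jag1 sum of squares that went with the array set fell out of the call with the neighbour correction (10.7% in place of 28.8%). The labels give no replicate numbers to pair mice by. With the array set as a block instead, the 26 member differences kept their sign and 0 were called.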
